A study of Homo sapiens with 12 samples.

Results

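The transcripts of 9 genes were followed through 6 peak lists: the JUN genes JUN, JUNB and JUND, the FOS genes FOS, FOSL1 and FOSL2, the related gene ATF3, and the antiproliferative genes BTG1 and BTG2. They were chosen by name, because JUN and BTG1 are known targets of eIF3 and the others belong to the same families. Together they held 102 of the 101848 peaks, on 9 of the 10830 gene names. The lists came from RNA immunoprecipitation followed by sequencing (RIP-seq), in which the RNA held by a protein is recovered with an antibody and compared with the input RNA. All 12 samples, 6 RIP and 6 input, were from the human liver cancer line HepG2, made into stable lines with pmiRNA1-3XFlag-METTL16, pSIN4-3XFlag-eIF3a or pSIN4-3XFlag-eIF3b, so that each tagged protein was present in excess. There were 2 RIP replicates of each protein. Per the labels, METTL16 and eIF3b were pulled down through the Flag tag and eIF3a with an antibody against eIF3a itself, so for eIF3a the antibody and the protein cannot be told apart, although the list names say flag for all 6. HepG2 without a tagged protein and the control IgG were not analysed here.

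eIF3 is the large initiation factor that helps to bring the small ribosomal subunit to mRNA. For a few mRNAs it also binds a structure in the 5′ untranslated region (5′ UTR) directly: it promotes translation of JUN in this way and represses that of BTG1. METTL16 is an RNA methyltransferase known for its action on U6 small nuclear RNA and on the MAT2A mRNA. JUN, JUNB and JUND pair with FOS proteins through leucine zippers to form AP-1, an immediate early transcription factor that drives proliferation and is active in the regenerating and cancerous liver. ATF3 is a stress-induced partner of the JUN proteins. BTG1 and BTG2 restrain growth and bring the CCR4-NOT deadenylase to mRNA.

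The lists held 12921 to 21733 peaks, with eIF3a replicate 2 shortest by peaks (12921) and by genes (5226, against 5829 to 8166 in the others). Members had 18 and 15 peaks in METTL16 replicates 1 and 2, 21 and 9 in eIF3a, and 21 and 18 in eIF3b. Mean GC content of all peaks was 59.0% and 60.8% for METTL16, 53.7% and 53.1% for eIF3a, and 58.1% and 54.1% for eIF3b. Fold enrichment, the signal of RIP over input in a peak, and the p-value by which peaks were ranked are values of the authors' peak caller. The read depth behind them is unknown. Of 10 liver marker genes, 9 had a peak in at least 1 list. SERPINA1 and HNF4A had one in all 6, ALB had one in 1 list and TTR in none. Of 4 markers of other cells, PECAM1 and VIM had a peak in 4 lists each, PTPRC in 1 and COL1A1 in none. A peak reports enrichment over input, so these counts are not expression levels and cannot check the cell type.

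The 5′ UTR was under a peak in every list for JUN, JUND and FOSL2. It was under a peak in each list that held the gene for JUNB (5 lists) and BTG1 (4 lists). No list placed a peak on the 5′ UTR of the canonical transcript of FOS, FOSL1, ATF3 or BTG2. With the 5′ UTR of any coding transcript, FOSL1 had such a peak in both eIF3b lists. The sequences below are the 30 bases at the middle of the 5′ UTR stretch that lay under peaks in all of those lists, read from GRCh38 on the transcript strand, 5′ to 3′. They show where the lists coincided, not a mapped binding site.

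JUN, chr1:58783470-58783499, minus strand: gaggggacaagtcgtcggagtccgggcggc
JUNB, chr19:12791615-12791644, plus strand: cacagctgccggctggctgctacccgcccg
JUND, chr19:18281526-18281555, minus strand: cgggggggcgcgggccccccgggaggccgc
FOSL2, chr2:28393567-28393596, plus strand: ctcgccctccgcggtgggggagaaacccag
BTG1, chr12:92145582-92145611, minus strand: ccggggtggctgctccgccgtcggggccgc

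These windows had GC contents of 73.3%, 76.7%, 96.7%, 73.3% and 86.7%, in the order printed. No such windows were drawn from other genes. The whole 5′ UTRs of the 5 genes had 65.0%, 74.5%, 89.9%, 68.5% and 65.6% GC, in the same order. The median over genes with a peak in any list was 67.8%, and the 5 genes were at percentiles 40.0, 73.6, 99.8, 52.3 and 42.0. The next set shows the same 5 genes at the start of translation, with the start codon in capitals, because peaks crossed it in some genes and stopped short of it in others.

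JUN, chr1:58783053-58783082, minus strand: acggactgttctATGactgcaaagatggaa
JUNB, chr19:12791760-12791789, plus strand: tgggccgcccggATGtgcactaaaatggaa
JUND, chr19:18281467-18281496, minus strand: gggaggcggaggATGgaaacacccttctac
FOSL2, chr2:28393709-28393738, plus strand: ccaccgcggatcATGtaccaggattatccc
BTG1, chr12:92145518-92145547, minus strand: cacgccgcccccATGcatcccttctacacc

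The start codon lay under a peak in all 6 lists for JUND, in 5 of 6 for FOSL2 and in all 4 lists that held BTG1. It was covered in 2 of 6 lists for JUN and in 1 of 5 for JUNB. Except in eIF3a replicate 2, the JUND peak over it also covered the whole coding sequence. The share of all genes with a covered start codon was not computed. Among all genes with a peak in any list and a coding canonical transcript, 1.9% had a peak touching the 5′ UTR in all 6 lists, and JUN, JUND and FOSL2 were 3 of these. The 5′ UTRs of JUN (977 bases) and FOSL2 (863 bases) were long, at percentiles 98.9 and 98.3 of the genes in the lists, whereas that of JUND (138 bases) was at percentile 48.7. Those of BTG1 (311 bases) and JUNB (286 bases) were at percentiles 81.0 and 78.3. The median was 142 bases. The part of length in holding a 5′ UTR peak was not tested. Among the genes without a 5′ UTR peak, those of FOSL1 (49 bases) and BTG2 (88 bases) were short, at percentiles 16.3 and 31.4. Those of FOS (155 bases) and ATF3 (174 bases) were at percentiles 53.3 and 58.2.

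JUN (ENSG00000177606, chromosome 1, 58776845 to 58784048, minus strand) encodes the c-Jun subunit of AP-1 and has a single exon in its canonical transcript. Its main peak lay in the 5′ UTR. With the A of the start codon at 0 on the mRNA, this peak ran from -834 to -205 in METTL16 replicate 1 and from -624 to -205 in replicate 2. It ran from -834 to 64 and from -804 to -115 in eIF3a, and from -893 to -25 and from -863 to 34 in eIF3b. A stretch of 420 bases, from -624 to -205 (chr1:58783275-58783694), was therefore shared by all 6 lists, and both METTL16 peaks ended at the same base short of the start codon. eIF3b replicate 1 held a second peak over the first bases of the 5′ UTR (4.12-fold), which reached past the start of the canonical transcript. Shares of the 5′ UTR under peaks were 64.5% and 43.0% for METTL16, 85.4% and 70.6% for eIF3a, and 91.5% and 88.3% for eIF3b. The METTL16 lists were lowest and the eIF3b lists highest, without overlap between the proteins. The share of all genes with such an order in this measure was not computed. The lists also differed in all bases under peaks, with 3214692 and 3392619 for METTL16, 5293396 and 4704224 for eIF3a, and 6320283 and 5411731 for eIF3b, and the part of list size in this order was not tested.

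Fold enrichment of the JUN 5′ UTR peak was 7.96 and 6.04 in the METTL16 lists. It was 5.16 and 4.51 in the eIF3a lists, and 19.3 and 11.2 in the eIF3b lists. eIF3b thus stood highest at 15.2 ± 5.73 (SD, n = 2), followed by METTL16 at 7.0 ± 1.36 and eIF3a at 4.83 ± 0.46, and no replicate of one protein fell within the range of another. How often other genes separate so by their 5′ UTR peak was not computed. With 2 replicates against 2, an exact permutation test (two-sided) cannot give a p under 0.33, and this holds for every comparison between proteins below. By p-value JUN ranked 36 and 44 among the genes of the eIF3b lists, 241 and 485 in METTL16 and 274 and 574 in eIF3a.

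Elsewhere on JUN, all 6 lists shared 180 bases at the end of the coding sequence (723 to 902) and 210 bases in the 3′ UTR (1112 to 1321). The highest fold enrichment outside the 5′ UTR was 5.55 and 6.15 in METTL16, 3.95 and 3.16 in eIF3a, and 6.63 and 4.53 in eIF3b. In METTL16 replicate 2 this exceeded the 5′ UTR peak, and in the other 5 lists the 5′ UTR peak was the highest on the gene. Over all genes, the highest peak touched the 5′ UTR in 12.2% to 23.6% of genes per list. In the first part of the coding sequence, separate peaks were few and weak, from 154 to 214 in METTL16 replicate 2 (1.55-fold) and from 124 to 453 in eIF3b replicate 1 (1.74-fold). Overlap of JUN peak bases as a Jaccard index was 0.674 to 0.747 for the 3 pairs of replicates and 0.529 to 0.842 for the 12 pairs of different proteins, and these ranges overlapped.

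**Figure D1:**
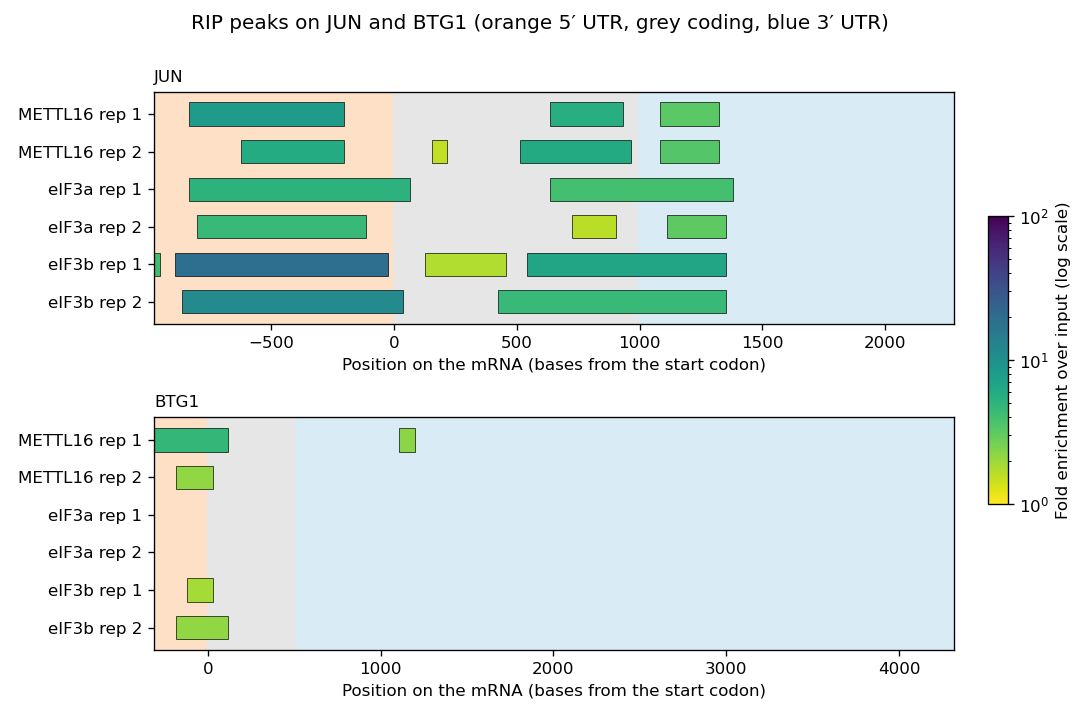
Peaks on the JUN and BTG1 mRNAs in the 6 lists, 1 line per list; the x axis is the position on the canonical mRNA in bases from the start codon, each bar is the exonic part of a peak, and its colour is the fold enrichment over input on a log scale. Every list has a JUN peak from -624 to -205 in the 5′ UTR, and BTG1 has bars across the start codon for METTL16 and eIF3b only.

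BTG1 (ENSG00000133639, chromosome 12, 92140278 to 92145846, minus strand), the other known eIF3 target, had 1 peak across the 5′ UTR and start codon in 4 lists. It ran from -311 to 118 and from -182 to 28 in METTL16 replicates 1 and 2, and from -122 to 28 and from -182 to 118 in eIF3b. The 151 bases from -122 to 28 were common to these 4 lists. Fold enrichment was 4.73 and 2.15 in METTL16 and 1.86 and 2.14 in eIF3b. Neither eIF3a list held a peak on BTG1. These were weak peaks apart from METTL16 replicate 1, with the gene at percentiles 57.1 and 13.2 by fold enrichment in METTL16 and at 7.61 and 14.6 in eIF3b. A second METTL16 replicate 1 peak of 91 bases lay in the 3′ UTR, with 2.23-fold enrichment. Of the 311 bases of the BTG1 5′ UTR, 274 are also exonic in BTG1-DT, a non-coding gene on the opposite strand. The library kit was stranded, but whether peak calling used the strand is not given in the sources used here. The BTG1 mRNA had 38.6% GC, at percentile 10.1, whereas its 5′ UTR had 65.6%, at percentile 42.0 of 5′ UTRs. The part of GC in these differences was not tested.

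FOSL2 (ENSG00000075426, chromosome 2, 28392448 to 28417317, plus strand), the FOS family member Fra-2, carried 36 peaks, most of any member. Its 5′ UTR held 2 separate peaks. The one nearer the cap began at -809 in both eIF3b lists, where it reached 79.2-fold and 51.4-fold enrichment. The same place gave 7.19-fold and 3.57-fold in METTL16 and 6.20-fold in eIF3a replicate 1, and had no peak in eIF3a replicate 2. Both eIF3b values were thus well above every other list, and they put FOSL2 at percentiles 99.3 and 99.7 of genes by fold enrichment, against 72.6 and 53.5 in METTL16 and 68.3 and 33.0 in eIF3a. Of all genes, 21.9% had a highest fold enrichment above both METTL16 values in both eIF3b lists. For 24.2% it was above both eIF3a values.

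The second FOSL2 peak lay next to the start codon and was present in all 6 lists, with 149 bases shared from -213 to -65. Its fold enrichment was 7.46 and 4.53 in METTL16, 3.09 and 2.67 in eIF3a, and 12.4 and 6.50 in eIF3b. It crossed the start codon in each list except eIF3a replicate 2. At this second site the range of eIF3b overlapped that of METTL16, unlike at the site nearer the cap. Further peaks lay in the coding sequence in 5 lists, with 2.44-fold to 7.85-fold enrichment at most per list, and in the long 3′ UTR, as far as 3151, in 5 lists. FOSL2 replicates were less alike than those of JUN, with Jaccard indices of 0.0956 to 0.572.

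**Figure D2:**
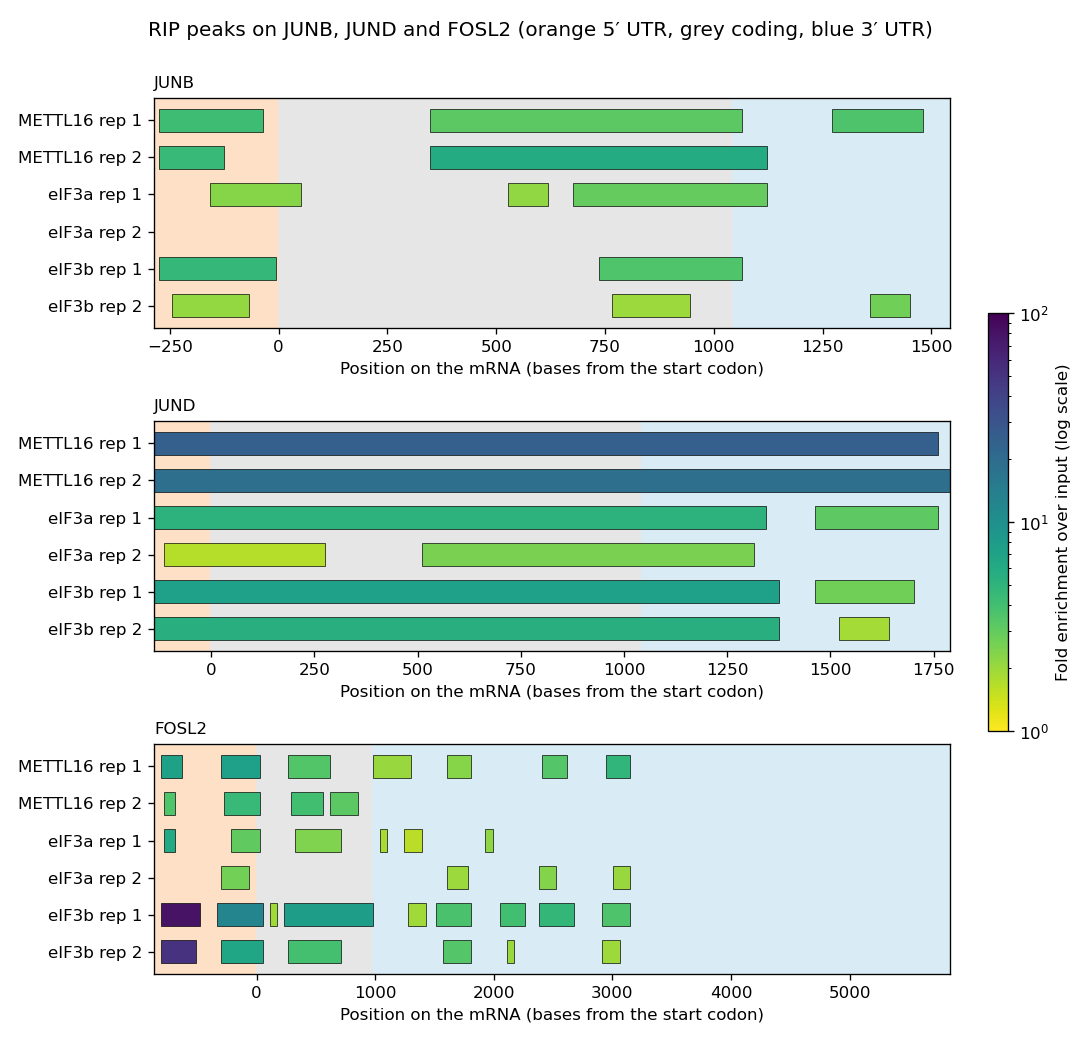
Peaks on the JUNB, JUND and FOSL2 mRNAs, drawn as for JUN; the x axis is the position in bases from the start codon, each line is a list and colour is fold enrichment on a log scale. JUND is covered almost end to end in both METTL16 lists, and the darkest FOSL2 bars are those of eIF3b at the far end of the 5′ UTR.

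JUND (ENSG00000130522, chromosome 19, 18279694 to 18281622, minus strand) encodes a JUN protein of more constant expression. In both METTL16 lists a single peak covered 98.4% and 100% of its mRNA, with 25.4-fold and 19.1-fold enrichment. The eIF3a lists covered 92.3% and 61.7% in 2 peaks each, with at most 5.20-fold and 2.54-fold enrichment, and the eIF3b lists 90.8% and 84.7% with 7.49-fold and 5.47-fold. Both METTL16 values lay above all 4 others, so METTL16 and eIF3b stood in the order opposite to that at FOSL2. By highest fold enrichment, both eIF3b lists were below both METTL16 lists in 10.5% of all genes and above them in 21.9%. Both eIF3a lists were below both METTL16 lists in 20.6%. eIF3a was below eIF3b at both genes, an order that 24.2% of all genes had. JUND had the highest GC content of the members, 89.9% in the 5′ UTR and 69.9% over the mRNA, at percentiles 99.8 and 99.5, and the METTL16 lists had the highest mean GC of the 6. BTG1 and BTG2, the other members lower in eIF3b than in METTL16 by highest fold enrichment, were at mRNA percentiles 10.1 and 52.5. JUNB, covered more in METTL16 than in the other lists, was at 94.6. The part of GC in these results was not tested. Because each METTL16 peak on JUND spanned all or nearly all of the mRNA, its fold enrichment is not a value of the 5′ UTR alone.

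JUNB (ENSG00000171223, chromosome 19, 12791486 to 12793315, plus strand), which can oppose c-Jun, had peaks in 5 lists and none in eIF3a replicate 2. The 5′ UTR peak had 4.15-fold and 4.47-fold enrichment in METTL16, 2.29-fold in eIF3a replicate 1, and 4.63-fold and 2.12-fold in eIF3b. The eIF3b replicates thus lay on either side of the METTL16 values. Bases of JUNB under peaks were 1163 and 924 in METTL16, 747 and 0 in eIF3a, and 597 and 450 in eIF3b, so METTL16 covered the gene most. JUNB shares 259 exonic bases, none in the 5′ UTR, with HOOK2 on the opposite strand.

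The remaining 4 genes had few peaks and none on the canonical 5′ UTR. FOS (ENSG00000170345), the founding partner of c-Jun, had peaks in 2 lists. One lay in the coding sequence in METTL16 replicate 2 with 31.0-fold enrichment, and 2 in eIF3a replicate 1 with 6.45-fold and 22.3-fold. Despite these folds FOS ranked 3867 and 6033 by p-value in the 2 lists, and in neither case did the other replicate hold a peak. FOSL1 (ENSG00000175592), or Fra-1, had peaks in 4 lists. All 4 included the same 2 pieces of coding sequence, from 261 to 296 and from 405 to 579, with 2.87-fold enrichment in METTL16 replicate 1, 5.47-fold in eIF3a replicate 1 and 5.73-fold and 3.04-fold in eIF3b. The latter 3 also had a 3′ UTR peak, with 6.34-fold, 3.43-fold and 3.67-fold enrichment.

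ATF3 (ENSG00000162772) had 1 peak in each of 3 lists, of 2.58-fold in METTL16 replicate 2, 2.06-fold in eIF3a replicate 1 and 2.40-fold in eIF3b replicate 2. The first 2 lay in the coding sequence and the last in the 3′ UTR, so no protein had it in both replicates. BTG2 (ENSG00000159388) differed from BTG1 in place. Its METTL16 peaks, of 20.5-fold and 6.67-fold, lay at the start of the 3′ UTR, from 554 to 793 and from 614 to 703. eIF3b replicate 1 had a peak at the same place (6.25-fold), whereas eIF3b replicate 2 had only a 61-base peak in the coding sequence (2.11-fold). eIF3a replicate 1 had 3 peaks of 2.25-fold to 2.66-fold. The eIF3b replicates therefore shared no base on BTG2, although the gene counts as found in both.

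**Figure D3:**
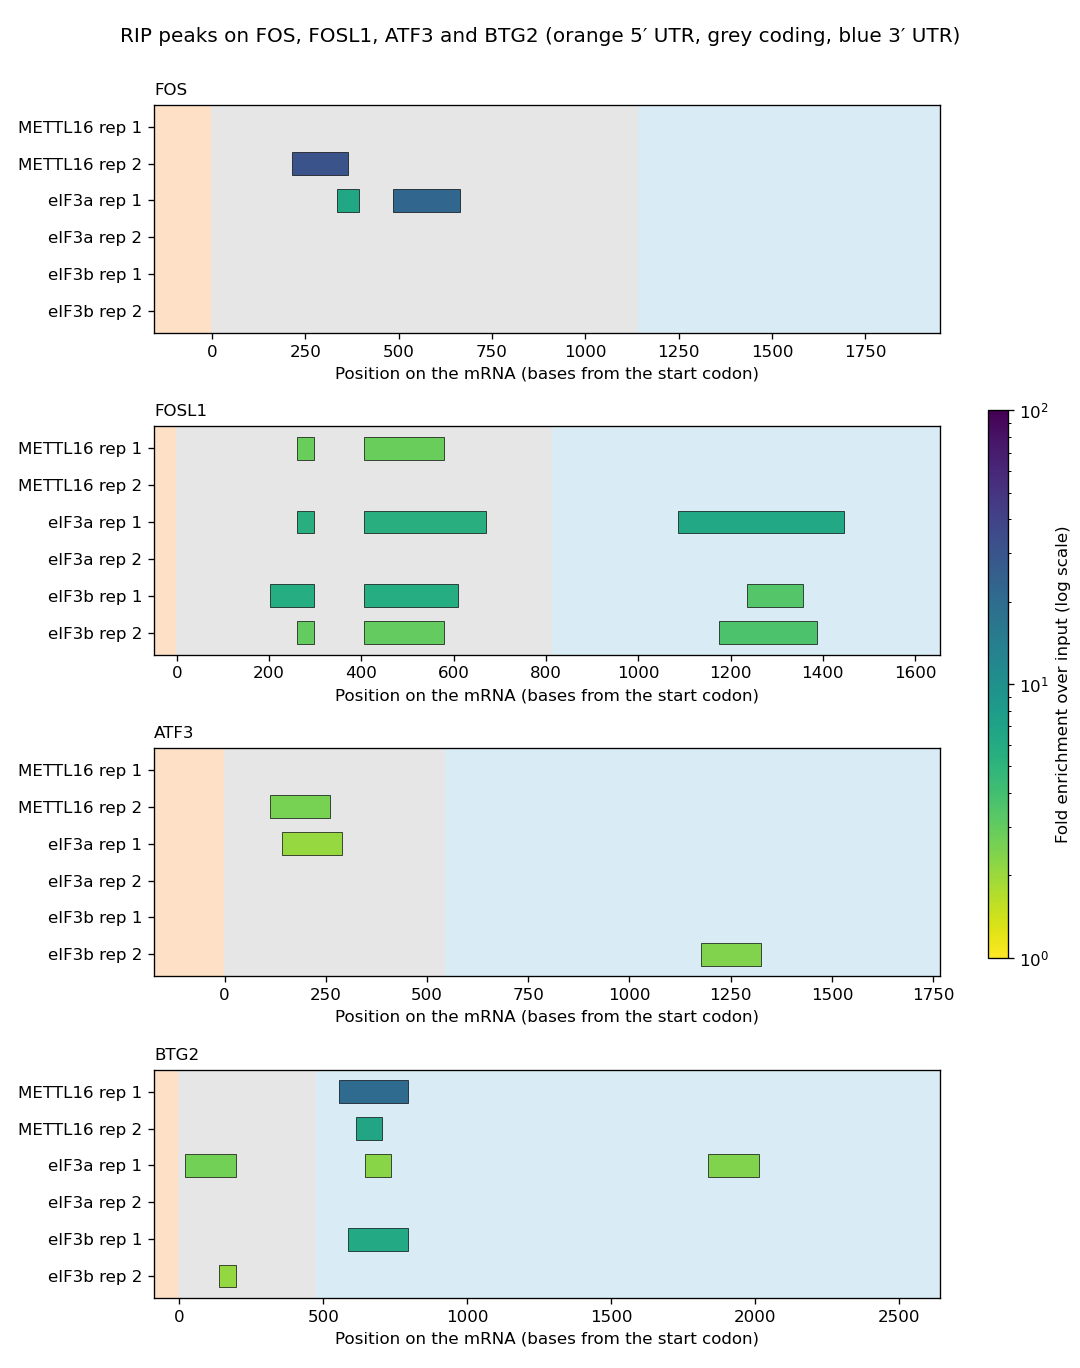
Peaks on the FOS, FOSL1, ATF3 and BTG2 mRNAs, drawn as for JUN; the x axis is the position in bases from the start codon, each line is a list and colour is fold enrichment on a log scale. No bar reaches the 5′ UTR, and the METTL16 bars on BTG2 lie shortly after the coding sequence.

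Counted as genes with a peak in both replicates, METTL16 bound 6 of the 9 members (JUN, JUNB, JUND, FOSL2, BTG1 and BTG2), against 42.6% of all genes with a peak in any list. eIF3a bound 3 (JUN, JUND and FOSL2), against 42.4%, and eIF3b bound 7, the METTL16 set and FOSL1, against 60%. JUN, JUND and FOSL2 had a peak in all 6 lists, which was true of 25.2% of genes. The eIF3a count was set by replicate 2, since replicate 1 held 8 members, all but BTG1, and replicate 2 held 3.

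Peaks touching the 5′ UTR in both replicates were found for 5 members in METTL16, the same 5 in eIF3b (JUN, JUNB, JUND, FOSL2 and BTG1) and 3 in eIF3a (JUN, JUND and FOSL2). The shares among all genes with a peak in both lists of the protein were 19.9% for METTL16, 22.9% for eIF3b and 10.3% for eIF3a. Of the members bound, 5 of 6 for METTL16, 5 of 7 for eIF3b and 3 of 3 for eIF3a had such a peak. None of the 10 JUND peaks had its centre in the 5′ UTR. With the centre required there, JUND dropped out for each protein, leaving 4 members for METTL16, 4 for eIF3b and 2 for eIF3a. Over all genes with a peak in any list the shares were 8.51%, 13.8% and 4.38% for METTL16, eIF3b and eIF3a. In single lists a 5′ UTR peak was held by 25.7% and 25.6% of the genes of METTL16 replicates 1 and 2, 21.9% and 17.8% for eIF3a and 35.3% and 25.8% for eIF3b. Of the 102 member peaks, 33 touched a 5′ UTR and 26 had their centre in one, with 38 centres in the coding sequence and 37 in the 3′ UTR. Of the 101208 peaks on genes with a coding canonical transcript, 10.8% touched a 5′ UTR, and 5.65% had their centre there, 59.8% in the coding sequence and 33.0% in the 3′ UTR.

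The highest fold enrichment of each gene separated the members into different orders. In the eIF3b lists it was above both METTL16 values for JUN, FOSL1 and FOSL2, which 21.9% of all genes showed. It was below both for JUND, BTG1 and BTG2, against 10.5% of genes, although for BTG1 the separation was only 2.14 against 2.15. In the eIF3a lists it was below both METTL16 values for JUN, JUNB, JUND, BTG1 and BTG2, against 20.6% of genes, and above both for none of the 9, against 12.4%. eIF3a was also below eIF3b for JUN, JUND, FOSL2 and BTG1, against 24.2% of genes, and above it for none, against 5.51%. Genes without a peak were set to 0 in these counts, which enter BTG1 in both eIF3a lists, JUNB and BTG2 in eIF3a replicate 2 and FOSL1 in METTL16 replicate 2. As percentiles within each list, an alternative chosen after seeing the data, JUN, FOSL1 and FOSL2 were higher in eIF3b than in METTL16, against 21.6% of genes. JUND, BTG2 and, in place of BTG1, JUNB were lower, against 11.8%. For eIF3a the percentiles separated the same members as the folds, lower than METTL16 in 5, against 19.1%, and lower than eIF3b in 4, against 21.5%. None was higher, against 13.6% and 6.81%.

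Bases under peaks gave fewer separations. JUN (2099 and 1827 bases in eIF3b against 1170 and 1171 in METTL16) and FOSL1 were more covered in both eIF3b lists, against 36% of all genes. JUNB and JUND were less covered, against 4.86%. eIF3a covered less of JUNB, JUND and BTG1 than METTL16, against 12.8% of genes, and none of the 9 more, against 21.8%. eIF3a covered less of JUN, FOSL2 and BTG1 than eIF3b, against 21.6%, and none more, against 6.13%.

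Relative to all bases under peaks in the list, the JUN difference between eIF3b and METTL16 turned. JUN took 332 and 338 bases per 1000000 in eIF3b against 364 and 345 in METTL16, so it was lower in both eIF3b lists. JUNB, JUND and BTG1 were lower too, against 17.4% of all genes, and FOSL1 was the 1 member higher, at 66.5 and 78.0 against 65.6 and 0, with 21.7% of genes higher. The larger coverage of JUN in eIF3b therefore held for bases as called and not for its share of the list. On this scale eIF3a was below METTL16 for JUN, JUNB, JUND, FOSL2 and BTG1, against 21.2%, and below eIF3b for JUN, FOSL2 and BTG1, against 18.2%. No member was higher in eIF3a, against 16.5% and 8.81%.

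**Figure D4:**
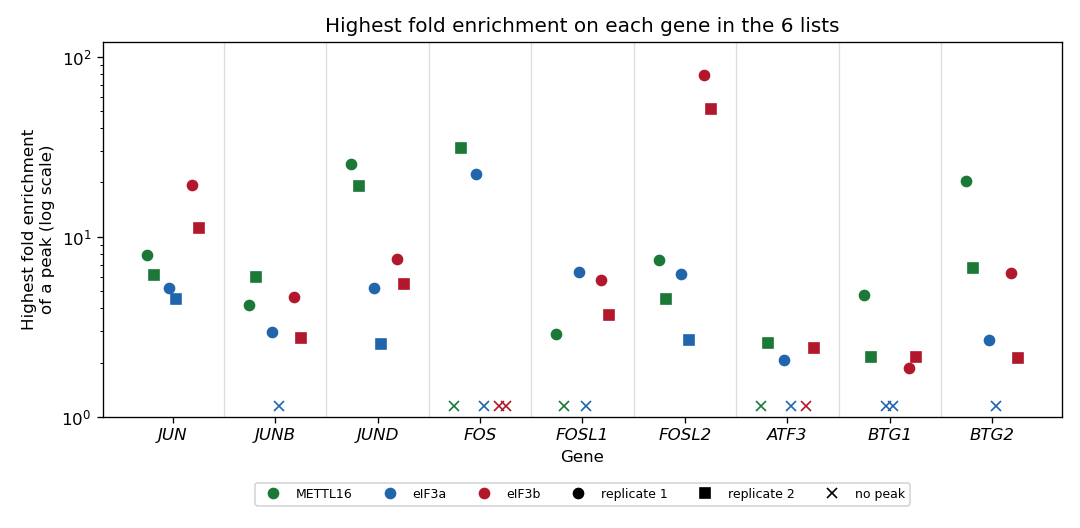
Highest fold enrichment of a peak on each of the 9 genes (log axis), with 1 point per list, coloured by protein and shaped by replicate; crosses mark lists with no peak. The eIF3b points lie above the METTL16 points for JUN and FOSL2 and below them for JUND.

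Because fold enrichment may be scaled differently in each list, the 5′ UTR was also set against the rest of the gene within a list, a measure chosen after the values had been seen. For JUN the highest fold enrichment on the 5′ UTR was 1.43 and 0.98 times the highest elsewhere in METTL16, 1.31 and 1.43 times in eIF3a, and 2.91 and 2.47 times in eIF3b. For FOSL2 it was 1.52 and 1.12 times in METTL16, 2.54 and 1.13 times in eIF3a, and 10.1 and 13.0 times in eIF3b. Both genes thus had higher ratios in both eIF3b lists than in any other list. Of 315 genes with both kinds of peak in the METTL16 and eIF3b lists, 20.3% were higher in both eIF3b lists and 17.1% lower. JUN, FOSL2 and JUND had lower ratios in both eIF3a lists than in both eIF3b lists, against 33% of 221 genes, with 8.6% higher. For JUND the peak touching the 5′ UTR also covered the whole coding sequence in both eIF3b lists and in eIF3a replicate 1. The JUND ratio is therefore not a value of the 5′ UTR alone. Between eIF3a and METTL16 the ratios of JUN and FOSL2 overlapped, while 15.1% of 106 genes were higher and 39.6% lower in eIF3a. FOSL2 was at percentiles 98.5 and 99.4 of this ratio in the eIF3b lists and JUN at 85.7 and 89.6. JUNB ranged from 0.75 to 1.31 over its 5 lists, with METTL16 and eIF3b overlapping.

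**Figure D5:**
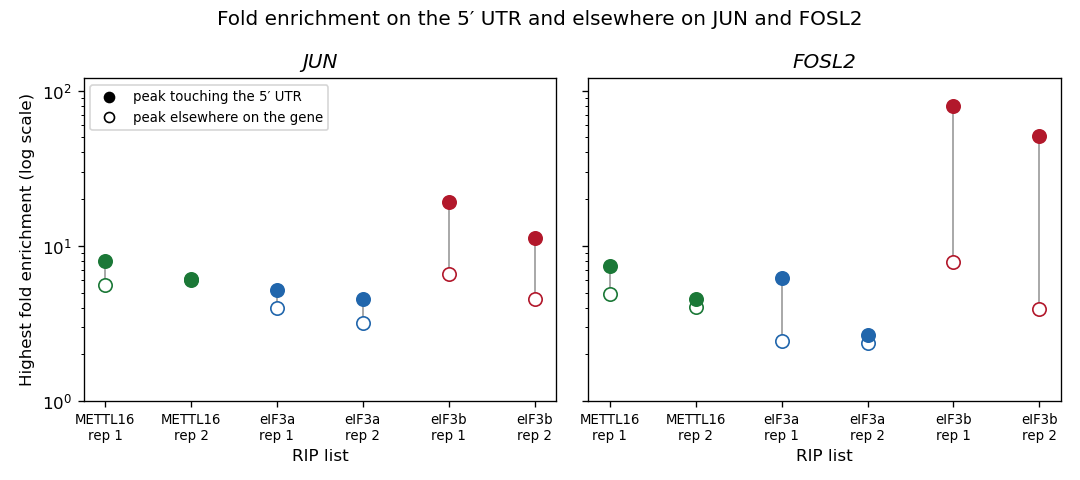
Highest fold enrichment (log axis) of a peak touching the 5′ UTR (filled) and of a peak elsewhere (open) on JUN and FOSL2, by list, joined by a grey line. The gap is widest in the 2 eIF3b lists for both genes, and in METTL16 replicate 2 the JUN symbols nearly coincide.

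Other genes of the pathway were read from lists of related genes, whose counts stand against the 42.6%, 42.4% and 60% of all genes with a peak in any list that METTL16, eIF3a and eIF3b bound in both replicates. Genes without a peak in any list are counted in the size of each list but not in those shares. Fold enrichments were ranked by geometric mean over the 6 lists, among genes with a peak in all 6 only. Of 22 AP-1-related leucine zipper genes, 7 had a peak in both METTL16 lists, 7 in both eIF3a lists and 11 in both eIF3b lists, while 15 had one in any list. The 3 with the highest fold enrichment among those in all 6 lists were MAFK (geometric mean 9.02), MAFG (5.35) and JDP2 (4.21), small MAF proteins and a JUN partner that represses AP-1. FOSB, the FOS family member outside the 9, had a peak in 1 list only. The stress factor ATF4, whose upstream reading frames control its translation, reached 7.55-fold and 6.61-fold in eIF3b against 1.22-fold to 1.89-fold in the other 4 lists, with no peak on its 5′ UTR. It was named after its values were seen, as was FOSB.

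Of 16 kinases and factors upstream of AP-1, 6, 7 and 9 were bound by METTL16, eIF3a and eIF3b, and 15 had a peak in any list. Those with a peak in all 6 were MAP2K7, a kinase that activates JNK (geometric mean 12.1), SRF (7.32) and MAP3K1 (3.30). Of 16 genes of the BTG/TOB family and CCR4-NOT, 7, 8 and 5 were bound, and 14 had a peak in any list. Those with a peak in all 6 were the deadenylase CNOT6 (11.0), TOB2 (4.49) and the poly(A)-binding protein PABPC1 (3.04). Each of these 3 had a peak on its 5′ UTR in 4 or 5 lists. This was not particular to the family, as MAFK and SRF had one in 5 lists each. The share of all genes reaching that number of lists was not computed. Of 14 other immediate early genes, METTL16 bound 11, eIF3a 3 and eIF3b 10, and 12 had a peak in any list. Those with a peak in all 6 were IER2 (9.42), ZFP36L1 (5.30) and KLF6 (3.58). Genes missing from 1 list were not ranked, among them ELK4, CNOT4 and EGR1, named after their values were seen, whose fold enrichment reached 32.5, 27.9 and 25.2. A peak on the 5′ UTR in both replicates was found for 0, 1 and 2 of the leucine zipper genes in METTL16, eIF3a and eIF3b, beside 8.51%, 4.38% and 13.8% of all genes with a peak in any list. It was found for 1, 2 and 4 of the upstream genes, 4, 0 and 3 of the BTG/TOB and CCR4-NOT genes, and 2, 0 and 2 of the immediate early genes.

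The genes most like JUN in fold enrichment were sought among the other 2729 genes with a peak in all 6 lists, by the root mean square distance of log2 fold enrichment of the peak with the smallest p-value. They were AKAP17A (distance 0.27), SNTB2 (0.28), VEGFA (0.28), VAV2 (0.32) and PPP1R26 (0.33). BTG1 had peaks in 4 lists, over which the nearest of 3944 genes were HPN (0.20), MRPS34 (0.21), SLC38A3 (0.21), MCL1 (0.22) and YPEL5 (0.23). All 6 lists had been planned. The eIF3a lists, which held no BTG1 peak, did not enter this distance, so the nearest genes may differ from BTG1 there.

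The letters ACAGAGA, the core of the sequence that METTL16 methylates in U6 RNA, were searched on the transcript strand only. They occurred once each in the canonical mRNAs of JUN, FOS, BTG1 and BTG2 and at 2 places in FOSL2, and 37.3% of the mRNAs searched held them. The FOSL2 match in the coding sequence lay under a peak in 5 lists, including both of METTL16. The JUN match, in the 3′ UTR, lay under peaks of eIF3a replicate 1 and both eIF3b lists and of neither METTL16 list. No match lay in a member's 5′ UTR, and the other 4 were under no peak. In all, 1 member peak in each METTL16 list held the letters, against 3.31% and 3.27% of all their peaks.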

How the data were processed

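Peaks were called in each of the 6 RIP-seq lists by the authors, who mapped reads to GRCh38 with STAR (also named in the submitters' processing notes) and ran exomePeak at default settings. Software versions, and how RIP and input libraries were matched, are not given in the sources used here. The authors deposited a p-value for each peak, log10 values of it before and after adjustment (read here as a score), and a fold enrichment over input, which is a ratio. No read counts were used, so depth is unknown and no counting error is given.

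Members were the rows with their gene name, and a member was bound when both replicates held a peak. Members and lists were chosen with earlier results of these data known. Coordinates were counted from 1. Regions followed the canonical transcript of GENCODE 44 on GRCh38. Of 10830 gene names, 10271 matched a symbol on the same strand, 461 an older one, and 98 none. A 5′ UTR peak had at least 1 base there. Between proteins, members were called separated when replicates did not overlap, with an exact permutation test (two-sided). Shares over all genes were computed for the counts of members. Named genes were all 9 members, the 3 highest of each related list and the 5 nearest to JUN and BTG1. Other settings were a fold enrichment of at least 4, 5000 peaks per list, either replicate, at least 30 bases or the peak centre in the 5′ UTR, any coding transcript, and leaving out replicates. Code (Python 3.11.15, pandas 2.3.3, numpy 2.4.6) was tested on simulated data. Replicates are separate samples per the labels.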

Additional observations from a re-analysis of the deposited data

How the results depend on the processing

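Of the values recomputed under other settings, 52 stayed within 1.5 times the reported count and 17 did not. With a fold enrichment of at least 4, eIF3a bound 1 member (JUN), on its 5′ UTR in the same 1 member, and eIF3b bound 3 (JUN, JUND and FOSL2), with a 5′ UTR peak in 3. With 5000 peaks per list, eIF3b bound 3 members, and a 5′ UTR peak was left in 3 for METTL16 and in 3 for eIF3b. A peak in either eIF3a replicate gave 8 members. Members separated between eIF3a and METTL16 numbered 3 by bases, 5 by highest fold enrichment, 5 by share of all bases under peaks and 5 by the percentile. Between eIF3b and METTL16 they numbered 4, with 2 higher and 2 lower in eIF3b, and 2 with a fold enrichment of at least 4. By share of all bases under peaks they numbered 5, with 1 higher and 4 lower, and JUN turned from higher to lower in eIF3b.

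Leaving out replicates gave 3 to 8 members bound by eIF3a, with 8 without eIF3a replicate 2. Separated members ranged from 4 to 7 for eIF3a against METTL16, with 6 without eIF3a replicate 1 and 7 without eIF3a replicate 2. They ranged from 4 to 7 for eIF3a against eIF3b, with 7 without either eIF3a replicate, and from 5 to 6 for eIF3b against METTL16. Without eIF3a replicate 2, 4 of the 7 in each eIF3a comparison were higher in eIF3a, whereas all 3 in the full comparison were lower. These counts include lone lists, which separate more easily than pairs. With the replicate number as a block, 4, 6 and 4 members had differences of 1 sign in eIF3a against METTL16, eIF3b against METTL16 and eIF3a against eIF3b. No source says that the numbers mark a shared culture. Read depth is unknown.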
